A study of Mus musculus with 96 samples.

Results

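The genes described here were Lin28b, Hmga2, Igf2bp1, Igf2bp2, Igf2bp3 and Arid3a, taken as the rows of the deposited count table that carry these names. All 6 were found among the 19836 gene symbols of the table, and all 6 had at least 30 reads over the 96 cells, the minimum that 15239 symbols met. Each cell was a single blood-forming stem cell or precursor of a C57BL/6 mouse embryo, sorted into a well of its own and sequenced as cDNA. At embryonic day E11.5, 48 cells labelled as precursors of haematopoietic stem cells (pre-HSC) came from the aorta-gonad-mesonephros region (AGM) and 16 from the yolk sac, and both were sorted as Ter119-CD11b-CD144+c-kit+EPCR+. The liver gave 16 cells labelled as haematopoietic stem cells (HSC) at E12.5, sorted as Ter119-Sca-1+c-kit+EPCR+, and 16 at E14.5, sorted as Ter119-Sca-1+c-kit+CD48-CD150+. By their labels, the AGM and yolk sac cells shared age and sort and differed in tissue. The E12.5 and E14.5 cells shared the tissue and differed in age and sort, whose parts in a difference cannot be told apart. Between the E11.5 groups and the liver groups, tissue, age and sort changed together, and their parts cannot be told apart either. No label ties a cell to an animal or litter. Each group therefore counts as 1 sample, no test between groups was made, and the spread over cells stands only for the cells of that group.

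Lin28b is an RNA-binding protein that blocks the maturation of let-7 microRNAs, and let-7 in turn lowers the mRNAs that carry matching sites in their 3′ untranslated regions (3′ UTRs). Hmga2, a chromatin protein, the Igf2bp family of mRNA-binding proteins and the DNA-binding protein Arid3a are known let-7 targets. In mouse blood-forming cells this circuit is known for its high activity in the fetus and its decline after birth, and Lin28b and Hmga2 are tied to the self-renewal and lineage output of fetal HSC.

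The let-7 family shares 1 seed, the bases 2 to 8 that pair with a target. The sequences are shown because a match to that seed was found in all 6 genes. RefSeq (GRCm38.p6) lists 8 distinct mature 5p sequences of let-7 at 10 loci, and all 8 carry the seed GAGGUAG. Of these, 3 are printed with the seed in capitals.
let-7a-5p: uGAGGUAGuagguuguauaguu
let-7b-5p: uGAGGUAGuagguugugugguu
let-7g-5p: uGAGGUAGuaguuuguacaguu
The letters that pair with the seed are CTACCTC. They were searched on the sense strand of the longest annotated 3′ UTR of each gene (GENCODE M21 on GRCm38), and the match nearest the stop codon is shown for every gene, with the matching letters in capitals.
Lin28b: cgggaagtCTACCTCatgcaagc
Hmga2: ttcaatttCTACCTCagcatcag
Igf2bp1: gaagtaaaCTACCTCaaggtgtg
Igf2bp2: aataaaagCTACCTCaggtgttt
Igf2bp3: ttactcaaCTACCTCaggtattc
Arid3a: gtttctttCTACCTCaggtcttt
On the mm10 assembly, which is GRCm38, these stretches lie at chr10:45381015-45381037, chr10:120364217-120364239, chr11:95961771-95961793, chr16:22059466-22059488, chr6:49086780-49086802 and chr10:79953902-79953924 in the order printed. All are on the minus strand except that of Arid3a, on the plus strand. In all 6 shown stretches the match is followed by an A. Lin28b, Hmga2 and Igf2bp1 each held 4 matches, Arid3a held 2, and Igf2bp2 and Igf2bp3 held 1 each. With the matches not shown counted too, an A followed 1 of 4 in Lin28b, 1 of 4 in Hmga2, 3 of 4 in Igf2bp1 and 1 of 2 in Arid3a. Over the longest 3′ UTRs of 21020 genes, 9.02% held at least 1 match. Among genes whose 3′ UTR was of similar length, 0.295% held as many matches as Lin28b, 0.123% as many as Hmga2 and 0.331% as many as Igf2bp1. The same share was 2.35% for Arid3a, 12.1% for Igf2bp2 and 13.3% for Igf2bp3. These shares count the member itself and genes with more matches. A match describes these letters and is not a measured site. The let-7 microRNAs themselves were not analysed here.

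The genes lie on separate loci of 4 chromosomes. Lin28b (ENSMUSG00000063804.8) spans chr10:45376620-45486395, Hmga2 (ENSMUSG00000056758.14) chr10:120361275-120476469 and Arid3a (ENSMUSG00000019564.12) chr10:79927043-79955018. Igf2bp1 (ENSMUSG00000013415.9) spans chr11:95957163-96005940, Igf2bp2 (ENSMUSG00000033581.16) chr16:22059009-22163299 and Igf2bp3 (ENSMUSG00000029814.10) chr6:49085223-49214957. The counts come from exons of whole genes, and whether the counting used strand is not given in the sources used here. Igf2bp3 shares 1529 exon bases with Malsu1 on the opposite strand, so some of its reads could belong to Malsu1, which had 8141 reads against 5374 for Igf2bp3. Of the cells with an Igf2bp3 read, 6 AGM, 1 yolk sac, 1 E12.5 and 2 E14.5 cells had no Malsu1 read. The overlaps of Hmga2 with 1700006J14Rik (140 bases, with reads of that gene in 3 AGM, 1 yolk sac, 1 E12.5 and 0 E14.5 cells) and of Igf2bp1 with Gm29202 (43 bases, reads in 2, 3, 3 and 0 cells) were shorter.

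Cells had 250235 to 1926882 reads and 1011 to 11094 detected genes, with median genes of 5522.5 in the AGM, 5349.5 in the yolk sac, and in the liver 4036 (E12.5) and 4839 (E14.5). Of 10 haematopoietic markers, Coro1a and Laptm5 were the most widely detected, with reads in 95 to 96 of the 96 cells. Others were found in fewer cells, such as Ptprc in 28 AGM, 9 yolk sac, 12 E12.5 and 10 E14.5 cells. Itga2b had reads in 26, 9, 2 and 4 cells. The median number of these 10 markers with a read per cell was 8, 7, 6.5 and 7.5 in the same order of groups. Not every cell carried RNA of its sort markers. Cdh5 (CD144) had reads in 45 of 48 AGM and 7 of 16 yolk sac cells, and Procr (EPCR) in 41 of 48 AGM, 6 of 16 yolk sac and 8 of 16 E12.5 cells. At E14.5, Slamf1 (CD150) had reads in 4 of 16 cells, and Cd48, which the sort selected against, in 6 of 16. Globin reads made up 21.95%, 14.55%, 12.9% and 4.41% of the reads in E14.5 cells 16, 3, 8 and 13, and at most 1.01% in any other cell. Shares, pooled levels and ratios of the 6 members were also taken without these 4 cells. The same was done without the yolk sac cells with a read of neither Cdh5 nor Procr. Both values are given where a call or a direction turned or the value moved by 1.5-fold or more. Co-detection, correlations and the values of listed genes were not taken again without these cells. Summed endothelial markers had medians of 1008 CPM per cell in the AGM (82.5 to 9900), 426 in the yolk sac (0.679 to 1309), 725 at E12.5 (0 to 2298) and 380 at E14.5 (0 to 1242), and the erythroid medians were 27.5, 33.6, 587 and 246 CPM. The part of these markers in the members' differences was not tested.

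Hmga2 was the most widely detected member, with a read in 94 of 96 cells, followed by Igf2bp2 in 74, Igf2bp1 in 70, Igf2bp3 in 54, Lin28b in 53 and Arid3a in 46. Per length, as pooled CPM per kilobase of exon, the level of Hmga2 was 23.6 over all cells. The other levels on the same scale were 7.43 for Igf2bp2, 5.39 for Igf2bp3, 3.99 for Igf2bp1, 3.69 for Lin28b and 3.28 for Arid3a. CPM are reads of a gene per 1e6 reads of the cell, and a pooled CPM takes both sums over the cells of a group.

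**Figure D1:**
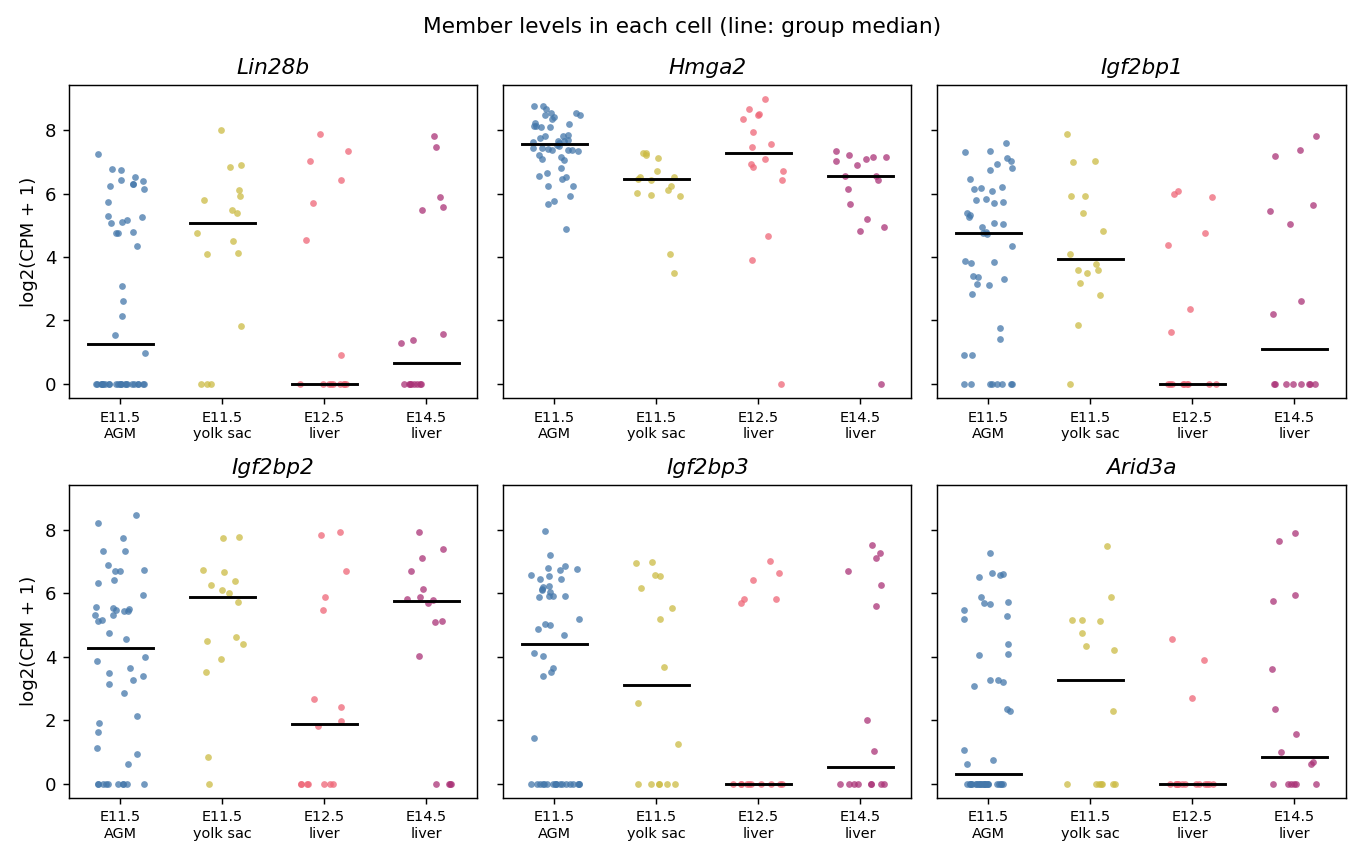
Level of each member in each cell as log2(CPM + 1) on the vertical axis, by group on the horizontal axis, with 48 AGM and 16 cells in each other group. Points are cells and black lines are group medians. Hmga2 was above 0 in all but 2 cells, while each other member had cells at 0, cells well above it and some cells between.

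Lin28b, the regulator of let-7 maturation, was detected in 25 of the 48 AGM cells (52.1%, exact Clopper-Pearson 95% interval 37.2% to 66.7%). It was found in 13 of 16 in the yolk sac (81.2%, 54.4% to 96.0%), 7 of 16 at E12.5 (43.8%, 19.8% to 70.1%) and 8 of 16 at E14.5 (50%, 24.7% to 75.3%). All 4 intervals overlapped, and they cover counting error only. With every cell thinned to 250000 reads the expected shares were 47.8%, 78.0%, 38.9% and 38.6%, in the same order of groups.

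In single cells, Lin28b ranged from 0 to 152.01 CPM in the AGM with a median of 1.43, and from 0 to 256 CPM in the yolk sac with a median of 33.5. It ranged from 0 to 233.9 CPM at E12.5 with a median of 0, and from 0 to 227.3 CPM at E14.5 with a median of 0.729. The ranges overlapped fully, and the yolk sac was the group in which most cells (12 of 16) had 10 CPM or more. Pooled Lin28b was 24.2 CPM in the AGM (exact Poisson 95% interval 22.99 to 25.5), 48.4 in the yolk sac (45.5 to 51.3), 39.9 at E12.5 (37.1 to 42.8) and 38.3 at E14.5 (35.7 to 41.05). The intervals of E12.5 and E14.5 overlapped, and those of the AGM and the yolk sac stood apart from both. Every difference between group means was smaller than the SD between cells, for example 26.5 ± 38.3 CPM in the AGM (mean ± SD, n = 48 cells) and 52.4 ± 65.8 in the yolk sac (n = 16 cells). A few cells carried much of the E14.5 level, where cell 1 held 41.4% of all Lin28b reads and the pooled level without it was 24.1 CPM.

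The log2 ratio of pooled CPM, computed after 1 CPM was added to each group, was 0.97 for Lin28b in the yolk sac against the AGM, 0.70 at E12.5 against the AGM, 0.64 at E14.5 against the AGM and -0.06 at E14.5 against E12.5. A difference is called past 2-fold where this ratio is 1 or more in size. Lin28b did not reach it in any of the 4 comparisons, but for the yolk sac it lay at the edge. Leaving out 1 cell at a time took it past 2-fold for 16 of the 64 cells, with ratios of up to 1.11 (without AGM cell 40) and down to 0.71 (without yolk sac cell 12). At E14.5 against the AGM the ratio was -0.01 without E14.5 cell 1, and at E14.5 against E12.5 it was 0.09 without the 4 globin-rich cells. Median-of-ratios scaling gave 1.06 for the yolk sac. In the yolk sac the share of cells with a Lin28b read exceeded that of the AGM by 29.2 percentage points, and 3.14% of the 15239 genes were higher by 25 points or more in that comparison. All 8 yolk sac cells with a read of Cdh5 or Procr had a Lin28b read. These 8 cells had a median of 7498.5 genes against 4726 in the 8 others, and the part of gene number in the share was not tested.

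**Figure D2:**
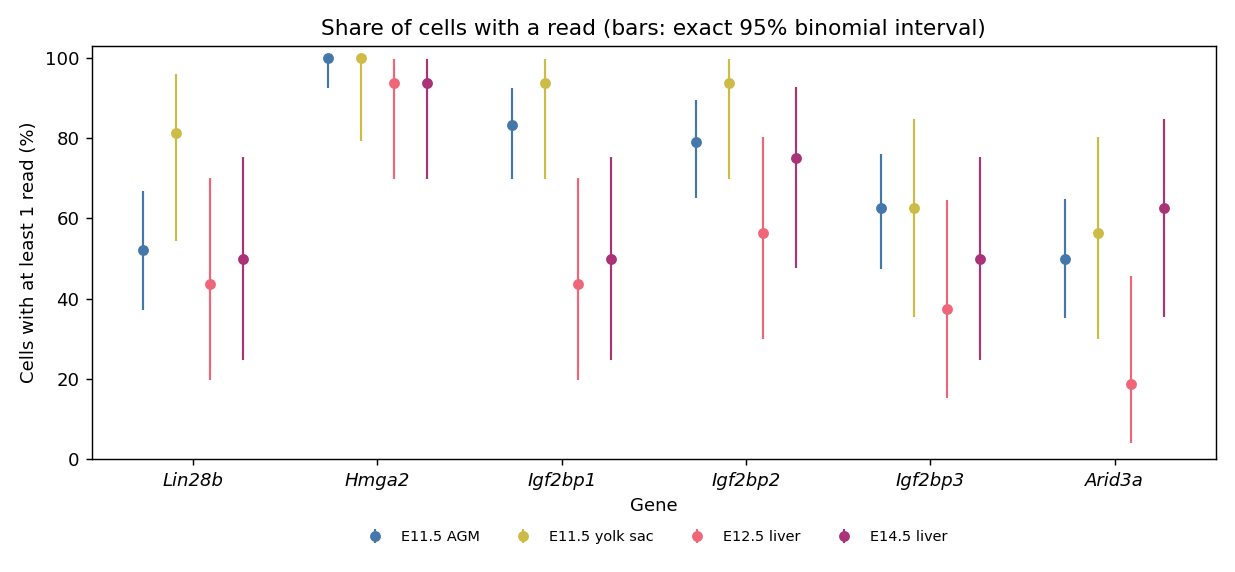
Share of cells with at least 1 read of each member (vertical axis, percent) by gene (horizontal axis) and group (colour), with exact 95% binomial intervals as bars. Hmga2 was near 100% in every group, Lin28b was highest in the yolk sac, and Arid3a was lowest at E12.5, at 18.8%.

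Hmga2, the chromatin protein, was detected in all 48 AGM cells (92.6% to 100% by the exact interval), all 16 yolk sac cells (79.4% to 100%) and 15 of 16 cells at both E12.5 and E14.5 (93.8%, 69.8% to 99.8%). A read in every cell was found for 4.97% of the tested genes in the AGM and 6.07% in the yolk sac. The E12.5 cell without Hmga2 was cell 8, which had 1011 genes, no read of any member, and the highest summed macrophage markers of its group, 13667 CPM. The E14.5 cell without Hmga2, also cell 8, was 1 of the 4 globin-rich cells.

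Hmga2 ranged from 28.5 to 436 CPM in the AGM (median 188.1) and from 10.2 to 156.4 CPM in the yolk sac (median 86.9). It ranged from 0 to 505 CPM at E12.5 (median 155.3) and from 0 to 161.7 CPM at E14.5 (median 93.4). No yolk sac cell and no E14.5 cell reached the AGM median, 0 of 16 in each (exact 95% interval up to 20.6%, or 18.8% by the limit of 3 cells), whereas 6 of 16 E12.5 cells did. The lower parts of all ranges overlapped. Means ± SD over cells were 206.4 ± 106.8 in the AGM, 88.3 ± 44.3 in the yolk sac, 197.6 ± 152.8 in the E12.5 liver and 91.3 ± 50.8 in the E14.5 liver. Of the 24 differences of means over 6 genes and 4 comparisons, those of Hmga2 in the yolk sac and at E14.5, each against the AGM, were larger than the SD between cells of both groups, and the other 22 were not.

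Pooled Hmga2 was 194.2 CPM in the AGM (190.7 to 197.7), 90.0 in the yolk sac (86.1 to 94.05), 201.8 at E12.5 (195.4 to 208.2) and 97.9 at E14.5 (93.7 to 102). The intervals of E12.5 and the AGM overlapped, as did those of E14.5 and the yolk sac, and the first pair stood above the second. The log2 ratio was -1.10 in the yolk sac against the AGM (-1.17 to -1.01 with each cell left out in turn), 0.05 at E12.5 against the AGM, -1.04 at E14.5 against E12.5 and -0.98 at E14.5 against the AGM. In the yolk sac comparison, where Hmga2 was the 1 member lower past 2-fold, 21% of all tested genes were lower and 8.61% were higher past 2-fold. With the 8 yolk sac cells that had a read of Cdh5 or Procr, the Hmga2 ratio was -0.98.

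The E14.5 values of Hmga2 lay close to the 2-fold mark. Against E12.5, 18.2% of tested genes were lower past 2-fold, and Hmga2 was the only member among them. Its ratio fell short of the mark when any of 8 single cells was left out, namely E14.5 cells 3, 8, 10 and 16 and E12.5 cells 3, 5, 6 and 16, with values from -0.99 to -0.78. Without the 4 globin-rich cells the ratios were -0.82 against E12.5 and -0.77 against the AGM, and with 10 CPM added the first was -0.97. Against the AGM, leaving out 1 of 12 cells of 64 took the ratio past the mark, to -1.06 at most, and with CPM averaged over cells it was -1.17.

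**Figure D3:**
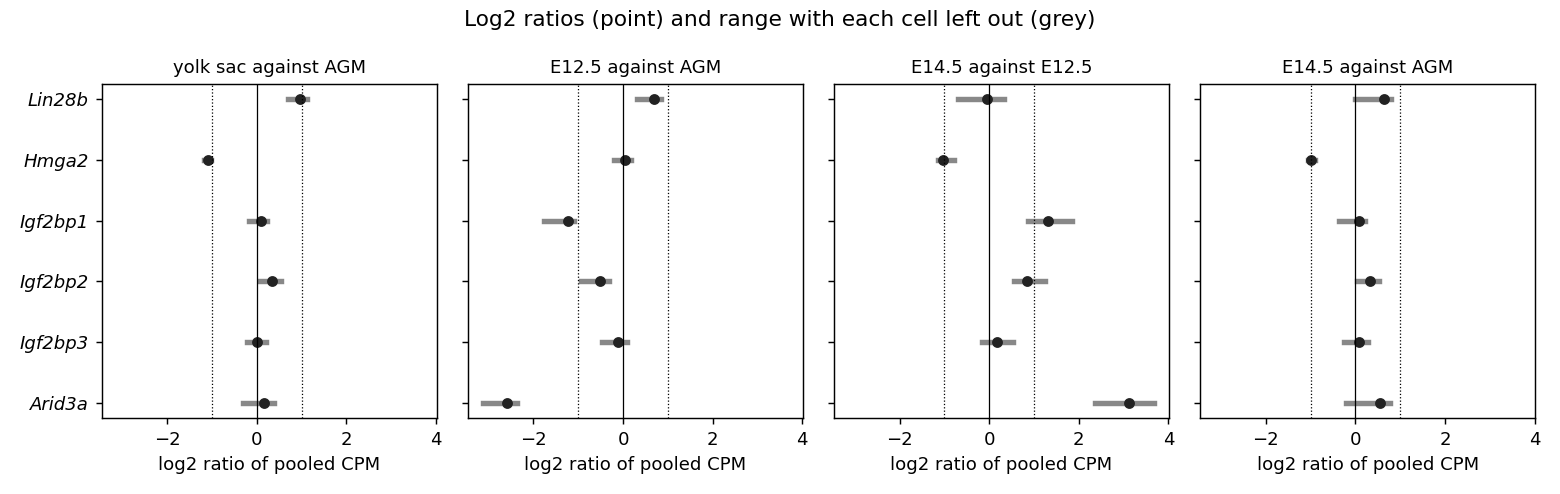
Log2 ratio of pooled CPM (horizontal axis, 1 CPM added) of each member (vertical axis) in the 4 comparisons. Points use all cells, grey bars span the values with each cell left out in turn, and dotted lines mark 2-fold. Hmga2 lay near -1 in 3 panels, and Arid3a lay at -2.58 and 3.13 in the panels that involve E12.5 liver on 1 side.

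The 3 Igf2bp genes encode proteins that bind mRNAs, Igf2 mRNA among them, and affect their stability, transport and translation. They differed from each other across the groups. Igf2bp1 was lower at E12.5 than in the other 3 groups, Igf2bp2 went the same way by less, and Igf2bp3 had nearly the same pooled level in all 4 groups.

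Reads of Igf2bp1 were found in 40 of the 48 AGM cells (83.3%, 69.8% to 92.5%), 15 of 16 yolk sac cells (93.8%, 69.8% to 99.8%), 7 of 16 at E12.5 (43.8%, 19.8% to 70.1%) and 8 of 16 at E14.5 (50%, 24.7% to 75.3%). Both liver shares were lower than both E11.5 shares, by 39.6 points at E12.5 and 33.3 points at E14.5 against the AGM. Shares lower by 25 points or more were found for 14.3% of tested genes in the first comparison and 11.3% in the second. Thinned to 250000 reads per cell, the shares were 76.3%, 87.7%, 38.2% and 46.2%.

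Igf2bp1 ranged from 0 to 194.8 CPM in the AGM (median 26.2), 0 to 237 in the yolk sac (median 14.501), 0 to 67.3 at E12.5 (median 0) and 0 to 224.6 at E14.5 (median 1.82). No E12.5 cell reached 100 CPM, against 8 AGM, 3 yolk sac and 3 E14.5 cells. Pooled levels were 41.4 CPM in the AGM (39.8 to 43.1), 44.3 in the yolk sac (41.6 to 47.1), 17.1 at E12.5 (15.3 to 19.02) and 44.01 at E14.5 (41.2 to 46.97). The intervals of the AGM, yolk sac and E14.5 overlapped, and E12.5 stood apart below. At E14.5 fewer cells than in the AGM thus had a read while the pooled level was alike, and 3 E14.5 cells held 86.0% of that group's reads.

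The log2 ratio of Igf2bp1 was -1.23 at E12.5 against the AGM (-1.75 to -1.10 with each cell left out), 1.32 at E14.5 against E12.5, 0.08 at E14.5 against the AGM and 0.09 in the yolk sac against the AGM. The first 2 were past 2-fold with 1 CPM added, and neither was with 10 CPM added, at -0.93 and 0.997. At E12.5 against the AGM, 26% of tested genes were lower and 15.6% higher past 2-fold, with 2 members lower and 0 higher. At E14.5 against E12.5, 18.7% of tested genes were higher past 2-fold, and 2 members were. Without E14.5 cell 5 the Igf2bp1 ratio against E12.5 was 0.86, and without cell 12 it was 0.94.

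Reads of Igf2bp2 were present in 38 AGM cells of 48, and in 15, 9 and 12 of the 16 cells from the yolk sac, E12.5 liver and E14.5 liver. It ranged from 0 to 354 CPM in the AGM (median 18.9), 0 to 220.96 in the yolk sac (median 57.9), 0 to 247 at E12.5 (median 2.71) and 0 to 244 at E14.5 (median 52.7). Medians were thus highest in the yolk sac and at E14.5, and 12 of 16 and 11 of 16 of their cells lay above the AGM median, against 5 of 16 at E12.5. Pooled levels over all cells were 67.2 CPM in the yolk sac (63.8 to 70.6), 65.9 at E14.5 (62.4 to 69.5), 52.6 in the AGM (50.8 to 54.5) and 36.4 at E12.5 (33.8 to 39.2). The first 2 intervals overlapped. The place of E14.5 above the AGM rested on the globin-rich cells, of which cell 13 held 22.6% of the Igf2bp2 reads of E14.5: without these 4 cells the level was 51.6 CPM, with ratios of -0.03 against the AGM and 0.49 against E12.5. No Igf2bp2 ratio was past 2-fold: they were 0.35 in the yolk sac against the AGM, -0.52 at E12.5 against the AGM, 0.84 at E14.5 against E12.5 and 0.32 at E14.5 against the AGM, over all cells. Leaving out E12.5 cell 12 or 13 gave a ratio of E14.5 to E12.5 of 1.15 or 1.13, and leaving out cell 16 took it further past 2-fold, to 1.255.

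Igf2bp3 was detected in 30 AGM cells of 48, and in 10, 6 and 8 of the 16 cells from the yolk sac, E12.5 liver and E14.5 liver. Its share at E12.5 was lower than in the AGM by 25 points, but its pooled levels were 43.99 CPM in the AGM, 44.5 in the yolk sac, and 40.8 (E12.5) and 46.3 (E14.5) in the liver, and their intervals overlapped. The 6 E12.5 cells with a read all had 51.3 CPM or more, and their median of 70.3 CPM compared with 62.3 in the 30 AGM cells with a read. In single cells Igf2bp3 ranged from 0 to 250 CPM in the AGM (median 20.5) and 0 to 125.4 in the yolk sac (median 8.31). It ranged from 0 to 128.5 at E12.5 (median 0) and 0 to 185.5 at E14.5 (median 0.519). The medians thus differed more than the pooled levels. Log2 ratios of pooled CPM lay between -0.11 and 0.18 in the 4 comparisons. With CPM averaged over cells, the ratio at E12.5 against the AGM was -0.47. In the 8 yolk sac cells with a read of Cdh5 or Procr, Igf2bp3 was at 67 CPM (log2 ratio against the AGM 0.60) and had a read in all 8.

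Arid3a, the DNA-binding protein, was the member that differed most between the groups on the log2 scale. Its reads were found in 24 of the 48 AGM cells (50%, 35.2% to 64.8%), 9 of 16 yolk sac cells (56.2%, 29.9% to 80.2%), 3 of 16 at E12.5 (18.8%, 4.05% to 45.6%) and 10 of 16 at E14.5 (62.5%, 35.4% to 84.8%). The E12.5 interval overlapped those of the other groups. At E12.5 its share was 31.2 points below the AGM and 43.8 points below E14.5, and 7.37% of tested genes had a share higher by 25 points or more at E14.5 than at E12.5. At 250000 reads per cell the shares were 42.99%, 54.1%, 17.2% and 41.3%, and 10 CPM or more were found in 31.2% of AGM cells and in 8, 2 and 5 of the 16 cells of the other groups. Of the 10 E14.5 cells with a read, 5 had fewer than 5 reads, and by either of these measures E14.5 did not exceed the yolk sac.

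Arid3a ranged from 0 to 152.3 CPM in the AGM (median 0.265), 0 to 178.4 in the yolk sac (median 10.8), 0 to 22.7 at E12.5 (median 0) and 0 to 240 at E14.5 (median 0.793). At E12.5 the 3 cells with reads had 22.7, 13.995 and 5.47 CPM. Pooled levels were 18.8 CPM in the AGM (17.7 to 19.9), 21.3 in the yolk sac (19.4 to 23.3), 2.31 at E12.5 (1.68 to 3.10) and 27.98 at E14.5 (25.7 to 30.4). E12.5 stood apart below, the AGM and yolk sac overlapped, and E14.5 stood above both. The log2 ratio was -2.58 at E12.5 against the AGM (-3.13 to -2.37 with each cell left out) and 3.13 at E14.5 against E12.5. Cell 10 held 46.2% of the E14.5 reads, and without it the second ratio was 2.37. With 10 CPM added in place of 1, the ratios were -1.23 and 1.63. The yolk sac and E14.5 ratios against the AGM, 0.17 and 0.55, were below 0 with 1 cell left out, at -0.30 without yolk sac cell 12 and -0.21 without E14.5 cell 10.

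Read across the 6 genes, 1 was past 2-fold in the yolk sac against the AGM (Hmga2), 2 at E12.5 against the AGM (Igf2bp1 and Arid3a), 3 at E14.5 against E12.5 (Hmga2, Igf2bp1 and Arid3a) and 0 at E14.5 against the AGM. These comparisons share cells, so a low E12.5 value enters the second and the third alike. The matching background for the last was 15.3% higher and 25.3% lower. The median log2 ratio of the members was 0.13, -0.31, 0.51 and 0.20 in that order, beside -0.20, -0.20, 0 and -0.23 over all tested genes. The 6 genes did not form 1 order of groups: Hmga2 was low in the yolk sac, where Lin28b was highest, and it was high at E12.5, where Igf2bp1 and Arid3a were lowest.

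**Figure D4:**
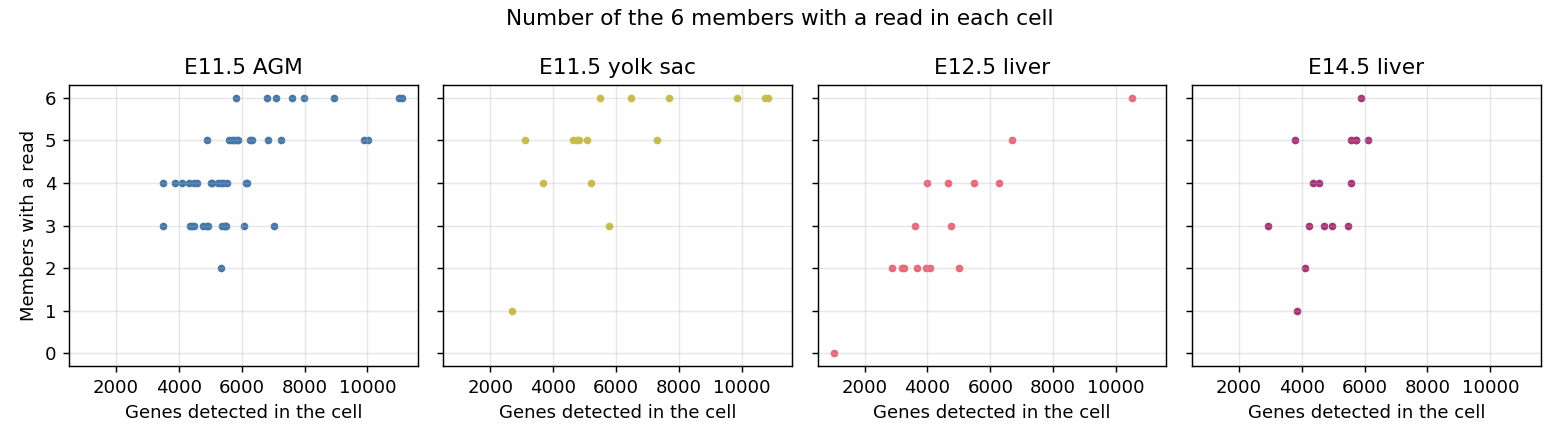
Number of the 6 members with a read in each cell (vertical axis) against the number of genes detected in that cell (horizontal axis), by group. The number of members was larger in cells with more genes in all 4 groups, with a median of 4 in the AGM, 5 in the yolk sac, 2.5 in the E12.5 liver and 4 in the E14.5 liver.

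Within cells, at least 4 of the 6 members had a read in 34 AGM cells of 48, and in 14, 6 and 9 of the 16 cells of the yolk sac, E12.5 and E14.5 groups. This number went with the genes detected, with Pearson's r of 0.63, 0.62, 0.88 and 0.61 over the 48, 16, 16 and 16 cells. Each point shares its library between both measures. Gene detection therefore moved with the members' shares, and its part in the group differences was not tested. All 3 Igf2bp genes had a read in 20 AGM, 10 yolk sac, 3 E12.5 and 4 E14.5 cells, and none of the 3 did in 0, 1, 3 and 2 cells.

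Detection of the Igf2bp genes beside Lin28b differed between the genes and groups. Of the 25 AGM cells with Lin28b, 23 had Igf2bp1 and 19 had Igf2bp3, and of the 23 AGM cells without Lin28b, 17 had Igf2bp1 and 11 had Igf2bp3. Igf2bp2 went the other way, with reads in 18 of the 25 and 20 of the 23. All 13 yolk sac cells with Lin28b had Igf2bp1 and Igf2bp2, and 10 had Igf2bp3. In the yolk sac the correlation of log2(CPM + 1) with Lin28b over 16 cells was 0.76 for Igf2bp1, 0.65 for Igf2bp2 and 0.55 for Igf2bp3. In the AGM it was 0.25, -0.12 and 0.42 for the same genes over 48 cells. In the liver it was 0.41, -0.35 and 0.11 at E12.5, and -0.05, -0.22 and 0.11 at E14.5. Between Lin28b and Hmga2 it was -0.04 in the AGM, 0.09 in the yolk sac, 0.29 in the E12.5 liver and 0.15 in the E14.5 liver. These r values are descriptions over cells that share a group and differ in depth.

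The genes whose level over the 96 cells was most like each member were chosen by the highest Pearson's r of log2(CPM + 1) among 7040 genes with a read in at least 30% of cells. For Lin28b they were Vps26b (0.45), Eea1 (0.43) and Prpf8 (0.42), and for Arid3a Qser1 (0.43), Nedd9 (0.41) and Map2k5 (0.41). For Hmga2 they were Nme2 (0.64), Ifitm2 (0.62) and Ndufa7 (0.62), and the rank correlations of these 3 were lower, at 0.47, 0.51 and 0.45. Igf2bp1 was most like Ubtf (0.52), Basp1 (0.50) and Zdhhc16 (0.50), Igf2bp2 like Baz1a (0.53), Eif3b (0.46) and Coq5 (0.45), and Igf2bp3 like Armc1 (0.49) and Lysmd2 (0.48), which were 2 of its 3 nearest genes. No member was among the 3 nearest genes of another.

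The other genes of the circuit were taken from lists. Here and in the paragraphs below, levels of listed genes are pooled CPM of a group. A few cells can hold much of such a level, and the cells with a read are not given for every gene. Past 2-fold, 8.61% of all 15239 tested genes were higher and 21% lower in the yolk sac against the AGM. The shares were 15.6% and 26% at E12.5 against the AGM. They were 18.7% and 18.2% at E14.5 against E12.5, and 15.3% and 25.3% at E14.5 against the AGM. Of 12 tested genes that process or turn over let-7, 0 were higher and 1 lower past 2-fold in the yolk sac against the AGM, 2 higher and 3 lower at E12.5 against the AGM, 2 higher and 1 lower at E14.5 against E12.5, and 1 higher and 2 lower at E14.5 against the AGM. The medians were 0.08, 0.10, -0.15 and 0.04. Zcchc6, which adds uridines to let-7 precursors, was at 43.6 CPM in the AGM, 26.1 in the yolk sac, 11.6 in the E12.5 liver and 5.59 in the E14.5 liver, with log2 ratios of -1.83 at E12.5 and -2.76 at E14.5 against the AGM. Dgcr8, which acts with Drosha in the nucleus, was at 9.19 CPM in the AGM and 40.3 at E12.5 (log2 ratio 2.02). Dis3l2, which degrades uridylated let-7 precursors, was at 23.5 CPM in the AGM, 9.03 at E12.5 and 31.3 at E14.5. Ago2, the effector that carries microRNAs, was at 9.57 CPM at E14.5 against 30.1 at E12.5 (log2 ratio -1.56).

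Of 18 further let-7 targets, 0 were higher and 2 lower past 2-fold in the yolk sac, 0 higher and 8 lower at E12.5, and 3 higher and 5 lower at E14.5, each against the AGM. At E14.5 against E12.5, 5 were higher and 2 lower. Medians were -0.17, -0.91 and -0.42 against the AGM and 0.23 for E14.5 against E12.5. The last was 0.33 by another treatment. It set genes at 0 reads in 1 group to their bound and left out genes at or under 3 reads in both. Over all tested genes, 8.61%, 15.6% and 15.3% were higher and 21%, 26% and 25.3% lower past 2-fold against the AGM. For E14.5 against E12.5 these shares were 18.7% and 18.2%. Trim71, an RNA-binding ubiquitin ligase, had a read in 19 of 48 AGM and 7 of 16 yolk sac cells and in 0 of 16 cells at either liver age. With 3 reads taken as the floor of a liver group, its pooled level was 30.4-fold lower at E12.5 and 32.9-fold lower at E14.5 than in the AGM. These folds count reads only and leave out which cells were drawn, so they set no minimum. Cdc25a, a phosphatase of the cell cycle, was at 26.3 CPM in the AGM, 24.97 in the yolk sac, 1.05 in the E12.5 liver and 23.5 in the E14.5 liver. It was lowest at E12.5, the group in which Igf2bp1 and Arid3a were lowest too. Mycn, a growth regulator, was highest at E14.5, with 138 CPM against 51.8 in the AGM. Hmga1, the paralog of Hmga2, lay within 2-fold in all 4 comparisons, at 352, 475, 297 and 323 CPM, whereas Arid3b, the paralog of Arid3a, was at 26.1, 12.0, 6.46 and 3.21 CPM.

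The insulin-like growth factor (IGF) genes form the pathway after which the Igf2bp family is named. Of 13 tested, 7, 8 and 10 were lower past 2-fold than in the AGM in the yolk sac, the E12.5 liver and the E14.5 liver, and 0 were higher in each of these comparisons. Their medians were -1.15, -1.62 and -2.85. At E14.5 against E12.5, 1 was higher and 6 lower, with a median of -0.32, or -1.18 over 10 genes by the same treatment. Of all tested genes, 21%, 26% and 25.3% were lower past 2-fold than in the AGM, in the same order of groups. The shares higher were 8.61%, 15.6% and 15.3%. At E14.5 against E12.5, 18.7% of all tested genes were higher and 18.2% lower. Igf2, the fetal growth factor, was at 886 CPM in the AGM, 380 in the yolk sac, 287 in the E12.5 liver and 30.3 in the E14.5 liver. H19, the noncoding RNA of the same imprinted locus, was at 503, 258, 161.1 and 70.5 CPM. Plagl1, an imprinted transcription factor, was at 64.4, 28.4, 30.5 and 3.45 CPM. Igfbp2, a secreted IGF-binding protein, had reads in 8 AGM and 3 yolk sac cells and in 0 liver cells. With 3 reads taken as the floor of a liver group, its pooled level was 188.7-fold lower at E12.5 and 203.9-fold lower at E14.5 than in the AGM. As for Trim71, these folds count reads only, leave out which cells were drawn and set no minimum. Many endothelial markers were lower past 2-fold than in the AGM too, with 7 of 10 in the yolk sac and 6 of 10 at each liver age. Of the mesenchymal markers, 6 of 8 were lower at each liver age but only 2 of 8 in the yolk sac. In that group 3 of the 8 lay above the AGM, and the median log2 ratio of the 8 was -0.34. Summed mesenchymal markers had a median of 0 CPM per cell in each group, the AGM included. The part of such markers in the IGF values was not tested. The pooled levels of the 3 Igf2bp genes at E14.5 were within 2-fold of the AGM. Igf2bp1 was, however, lower past 2-fold at E12.5. At E14.5 it had a read in 50% of cells against 83.3% in the AGM, with 86.0% of its E14.5 reads in 3 cells.

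**Figure D5:**
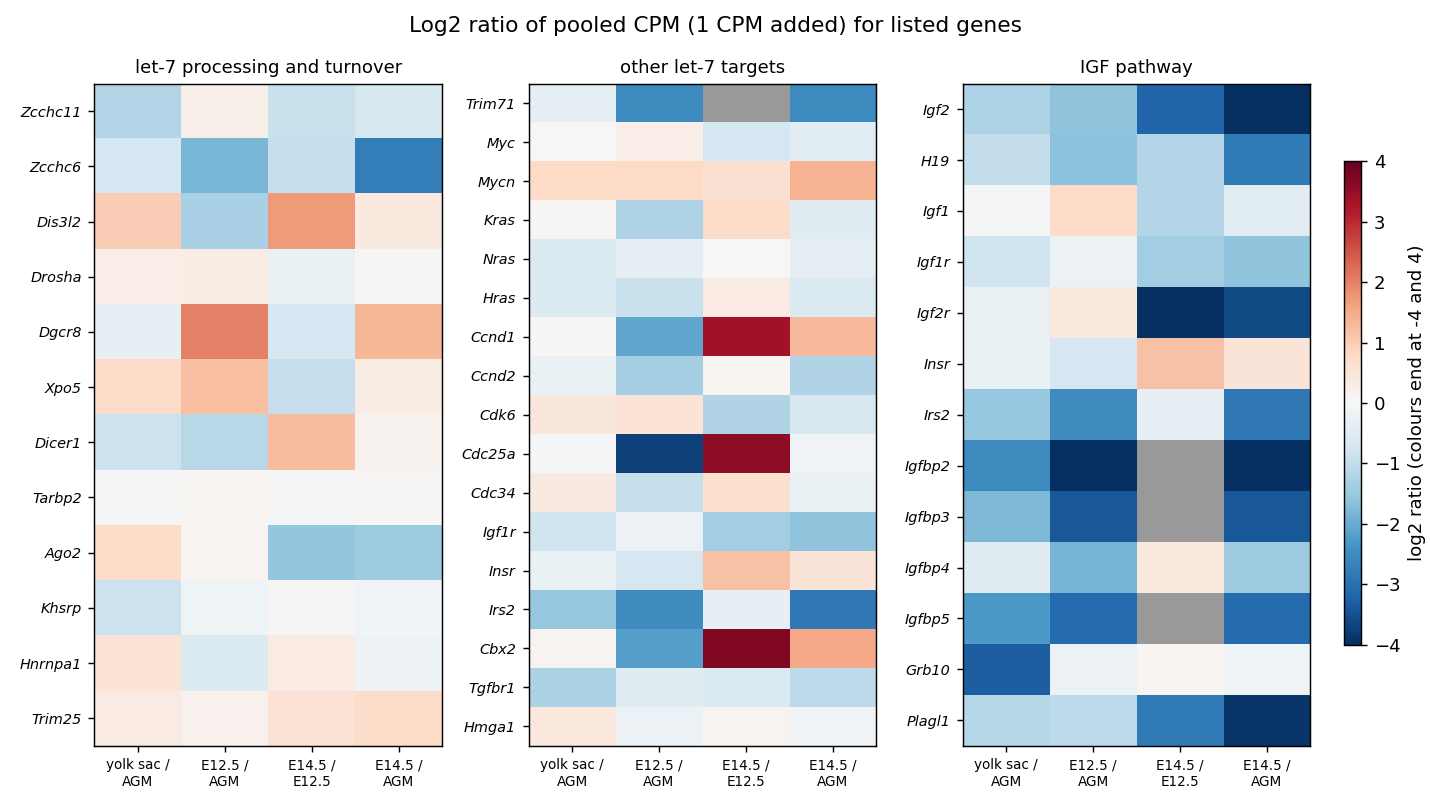
Log2 ratio of pooled CPM (colour, 1 CPM added) of the tested genes of 3 lists, 1 let-7 target left out (vertical axis) in the 4 comparisons (horizontal axis). Grey marks genes with 0 reads in both groups, and a ratio against a group with 0 reads depends on the CPM added. IGF genes were mostly blue against the AGM. At E12.5 against the AGM, 8 of 18 further let-7 targets were lower past 2-fold, beside 26% of all tested genes.

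Among 11 tested regulators of fetal and adult HSC, Ezh1, a Polycomb methyltransferase, was at 15.6 CPM in the AGM, 19.4 in the yolk sac, 104 in the E12.5 liver and 44.3 in the E14.5 liver. Cbx8, a Polycomb reader, was at 1.23, 3.72, 36.1 and 39.8 CPM, and Ezh2 at 94.2, 98.5, 73.7 and 71.8 CPM. In this list 1 gene was higher and 3 lower in the yolk sac, 3 higher and 1 lower at E12.5, and 4 higher and 2 lower at E14.5 past 2-fold against the AGM, and 2 were higher and 4 lower at E14.5 against E12.5. Among 7 early B-lineage genes, on which Lin28b and Arid3a are known to act in the fetus, Flt3, a receptor of early lymphoid progenitors, was at 51.1 CPM in the AGM, 85.5 in the yolk sac, 187.5 in the E12.5 liver and 158.3 in the E14.5 liver. Ebf1, a B-cell factor, had reads in 7 of 48 AGM cells and in 0 cells of the 3 other groups, and Il7r had reads in 4, 3, 1 and 1 cells. Of these 7 genes, 1 was higher and 1 lower past 2-fold in the yolk sac against the AGM, and 3 higher and 1 lower at E12.5. At E14.5, 1 was higher and 2 lower against the AGM, and 0 higher and 2 lower against E12.5. Beside both lists, 8.61%, 15.6% and 15.3% of all tested genes were higher and 21%, 26% and 25.3% lower against the AGM. The shares at E14.5 against E12.5 were 18.7% and 18.2%.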

How the data were processed

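Per the labels' protocols, single cells were sorted into wells of a plate, a SMART-Seq kit made the cDNA, and a transposome cut and tagged it before PCR. Raw counts of reads per gene were deposited by the authors in 1 table, whose 96 columns were all matched to cells by name. Per the submitters' processing notes, FastQC, Trimmomatic 0.36, STAR and HTSeq were used with the mm10 build. The annotation release is not given in the sources used here. No molecular identifiers are named, so counts are reads, and intervals and floors cover counting error only.

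The table held 19949 rows. Rows with the same symbol (113 repeats) were summed to 19836 symbols, of which 15239 had at least 30 reads and were used for lists and backgrounds. Cells needed 1000 detected genes, which removed none, and no doublet caller was run. The 8 cells with more than 9000 genes were left out in an added alternative. Reads were pooled by group and scaled to CPM, and log2 ratios were taken after 1 CPM was added, which understates the change of low genes. Shares have exact Clopper-Pearson and pooled levels exact Poisson 95% intervals. As each group is 1 sample, no test was made. Ratios were checked on simulated counts. Promoters and proteins were not used here. GENCODE M21 gave coordinates, exon lengths and 3′ UTRs, of which those within 0.8 to 1.25 times a member's length counted as similar.

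Named genes were the 6 members, the sort markers, list genes past 2-fold (at most 6 per list and comparison), the 3 genes most like each member, and cells holding over 50% of a member's reads in a group, of which there were 0. Hmga1, Ezh2, Il7r and genes named for a level only, and cells below that 50%, were chosen after their values were seen, as were the 25-point rule and the limit of 9000 genes. The members and lists were chosen with earlier results of these data known. Listed genes that had no row here, such as Lin28a and Irs1, were not analysed here. The values of 2 further genes are not reported here. Zcchc11 and Zcchc6 are the table's names for Tut4 and Tut7. Alternatives were other minimums of genes, reads and CPM, thinning to 250000 or 690000 reads per cell, mean CPM, median-of-ratios scaling, 0.1 or 10 CPM added, and leaving out doubted cells or each cell in turn. Python 3.11.15, pandas 2.3.3, numpy 2.4.6, scipy 1.17.1 and matplotlib 3.10.9 were used.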

Additional observations from a re-analysis of the deposited data

How the results depend on the processing

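No paired analysis was possible because the cell numbers of the labels name no shared animal or litter and the results come from no test. No called ratio changed direction under any alternative run. Over the alternatives, 16 shares left the 95% interval of the reported share, and 6 ratios and 4 pooled levels moved by 1.5-fold or more.

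The yolk sac cells with a read of Cdh5 or Procr gave shares of 100% for Lin28b, Igf2bp1, Igf2bp2 and Igf2bp3, and 0 members lower past 2-fold against the AGM. The Hmga2 share was 100% at E12.5 in cells with at least 2000 genes and also when cells were thinned to 690000 reads (99.99998%), and it was 100% at E14.5 without cells 3, 8, 13 and 16. Without those 4 cells 0 members were lower past 2-fold against E12.5. At 10 CPM or more the share was 62.5% for Igf2bp1, 58.3% for Igf2bp2 and 31.2% for Arid3a in the AGM and 31.2% for Arid3a at E14.5, where 5 or more reads gave 31.2% too. With 10 CPM added, 1 member (Arid3a) was lower at E12.5 against the AGM, and 1 (Arid3a) was higher and 0 lower at E14.5 against E12.5. The number higher in the yolk sac became 1 (Lin28b) with median-of-ratios scaling and in cells with at most 9000 genes, and the number lower at E14.5 against the AGM became 1 (Hmga2) when CPM were averaged over cells.

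When single cells were left out, the shares of Hmga2 at E12.5 and E14.5 and of Igf2bp1 and Igf2bp2 in the yolk sac ran from 93.3% to 100%. The number of members past 2-fold ran from 0 to 1 for higher in the yolk sac against the AGM, lower at E14.5 against E12.5 and lower at E14.5 against the AGM, and from 1 to 3 for higher at E14.5 against E12.5. The causes were not tested.

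With 16 cells in 3 of the 4 groups, the exact 95% interval of a share of 0 reaches 20.6% of cells, and the 95% interval of a share near 50% spans 24.7% to 75.3%. Animals, litters and sorting days cannot be told apart from the groups.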
